A study of Mus musculus with 8 samples.

Results

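The PEA3 transcription factors and the feedback inhibitors of ERK, 10 genes in all, were followed in neonatal cardiomyocytes (NCMs) of mice exposed in utero to filtered air (FA) or diesel exhaust (DE). The genes are the PEA3 subfamily of ETS transcription factors (Etv1, Etv4 and Etv5), the Sprouty genes Spry1, Spry2 and Spry4, the Spred genes Spred1 and Spred2, and the ERK phosphatase genes Dusp4 and Dusp6. The 10 members were found by symbol among the 27179 genes of the count table, and all 10 were among the 14966 genes that passed the filter on low counts. The list was built around Etv4, which was already known to differ between DE and FA in these libraries. Values of DE against FA for the members are therefore given as a description. Where a member is said to have met or missed the thresholds of a call, this only places it in the fit over all genes, and nothing was read from it.

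The 8 RNA-seq libraries, 4 FA and 4 DE, each held the NCMs of 1 heart from a male C57Bl/6 J mouse at PND0. In both groups mating took place in FA, and the dams then stayed in FA or entered DE, regulated to 300 μg/m3 of PM2.5, from E0.5 to E17.5. DE was given for part of the day on weekdays only, so its time-weighted average was lower. In both groups atria and surrounding vessels had been removed before enzyme digestion, and fibroblasts were depleted by letting them settle on a dish in medium with Ara-C. The labels give no other agent or allele for either group, and the litter of each heart is not given in the sources used here.

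ERK is the last kinase of a relay that runs from growth factor receptors, among them the FGF receptors, through Ras and MEK. Active ERK raises transcription of the PEA3 factors and of its own inhibitors, so that in many embryonic tissues these genes are used together as a readout of FGF and ERK signaling. Sprouty and Spred proteins restrain the pathway upstream of ERK, and Dusp4 and Dusp6 remove phosphate from ERK itself. In the developing heart, FGF and ERK signaling is known for its part in the growth of the ventricular wall, and Etv1 is known from atrial and fast-conducting muscle.

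Between 17943024 and 39839737 fragments were counted per library. The names of the 4 FA libraries and of DE replicates 1 and 7 carry the number 11, and those of DE replicates 3 and 5 the number 12, whose meaning is not given in the sources used here. Cardiomyocyte markers were abundant in every library, with a summed level of 71085 to 76963 CPM (counts scaled to library size and composition) in FA and 62367 to 73301 CPM in DE over 10 markers. RNA of fibroblast markers was also present, at a higher level in DE. The 9 fibroblast markers summed to 2045 to 3532 CPM in FA and 3736 to 6284 CPM in DE, with all 9 higher on average in DE and 3 called. Endothelial markers overlapped, at 1087 to 1429 CPM in FA against 1143 to 1706 CPM in DE. Leukocyte markers summed to at most 26.1 CPM, and Adgre1, C1qa and Cd52 were near 0. Sums for smooth muscle and pericytes (173.2 to 241.9 against 187.4 to 299.98 CPM), erythroid cells (429.2 to 1024 against 674.4 to 1123), mesothelium (97.8 to 126.7 against 92.2 to 130.9), Schwann cells (6.72 to 16.3 against 5.596 to 7.14) and atria (524.9 to 1293 against 522.4 to 802.2) overlapped between FA and DE. Conduction system markers, at 279.3 to 375.4 CPM in FA, were lower in every DE library, at 209.6 to 241.8 CPM. The part of these other cells in the levels of the members, and of the other genes named below, was not tested. In bulk RNA, fewer cells of a type and less RNA per cell cannot be told apart. Libraries also differed in how levels moved with transcript length. FA replicates 2 and 4 and DE replicates 1 and 7 had a positive slope, of 0.04 to 0.14 on the log2 scale per doubling of length. FA replicates 3 and 6 and DE replicates 3 and 5 had a negative slope, of -0.15 to -0.02.

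In FA NCMs the feedback genes spanned a wide range of levels, and Etv4 was the lowest of the 10. Per kilobase of transcript, Spry2 stood at 27.9 CPM and Dusp6 at 20.1 CPM, and their ranges over the 4 FA libraries overlapped. Both lay above all other members, of which Spred1 was next at 5.96 CPM per kilobase. Spry1 (5.45), Dusp4 (4.73), Spred2 (4.10), Etv5 (3.46), Etv1 (3.07) and Spry4 (2.93 CPM per kilobase) followed, and each overlapped with its neighbor in this order. Etv4 was at 0.84 CPM per kilobase, with a highest FA library of 0.91 against a lowest of 2.25 for Spry4. By this measure Etv4 lay at the 23.6th percentile of all tested genes over the 8 libraries, and Spry2 at the 85.7th. A total of 767 fragments, or 38 to 201 per library, were counted for Etv4. Its values thus have the largest counting error among the members.

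Etv4, on chromosome 11 of GRCm38.p6 (the assembly also called mm10) from 101769747 to 101785310, was higher in every DE library than in any FA library. In FA replicates 2, 3, 4 and 6 it stood at 1.84, 2.19, 2.14 and 1.92 CPM. In DE replicates 1, 3, 5 and 7 it stood at 4.36, 5.77, 4.24 and 3.30 CPM, and values below are given in these orders. The FA libraries lay close together, and the DE libraries were spread more widely, with replicate 3 highest and replicate 7 lowest. The mean went from 2.02 ± 0.17 to 4.42 ± 1.02 CPM (SD, n = 4 each). The log2 fold change was 1.14, with a standard error of 0.19. Both DE prefixes lay above FA, with a mean of 3.83 CPM for prefix 11 and 5.00 CPM for prefix 12.

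**Figure D1:**
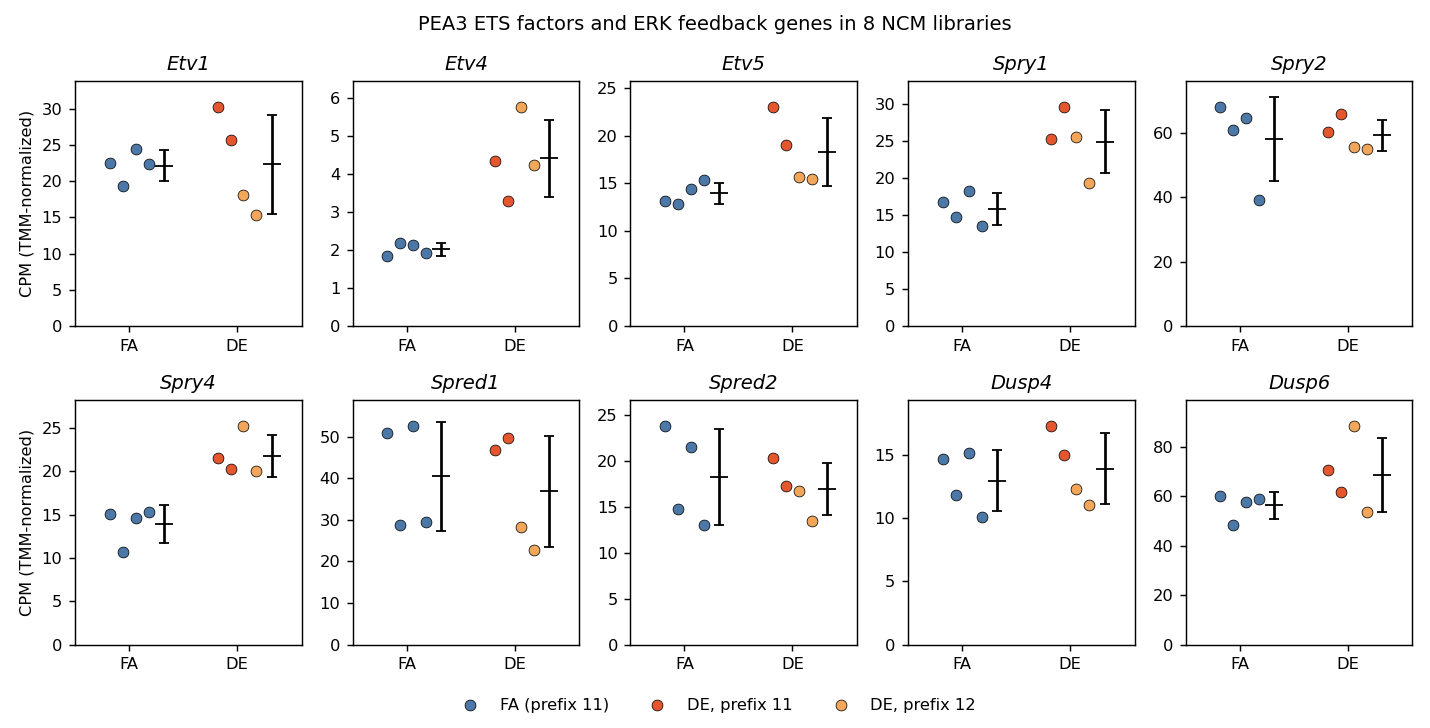
Normalized level (CPM, linear axis from 0) of each of the 10 members in the 4 FA and 4 DE libraries, with points colored by group and name prefix and the mean ± SD of each group beside them. Every DE point of Etv4, Etv5, Spry1 and Spry4 lies above every FA point, and the points of the other 6 members overlap.

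The remaining PEA3 factors were Etv5, which was also higher in every DE library but by a narrow margin, and Etv1, whose groups overlapped. Etv5, on chromosome 16 from 22381313 to 22439570, stood at 13.2, 12.9, 14.4 and 15.3 CPM in FA, and 23.0, 15.6, 15.5 and 19.0 CPM were measured in DE. The groups did not overlap, but the DE libraries of prefix 12 were only just above the highest FA library, and the 2 of prefix 11 were further up. The log2 fold change was 0.39 (standard error 0.14), and Etv5 did not meet the thresholds of a call. Etv1, on chromosome 12 from 38780082 to 38870483, stood at 22.5, 19.3, 24.4 and 22.3 CPM in FA, and 30.2, 18.1, 15.3 and 25.7 CPM were measured in DE. Here the FA libraries lay between the DE libraries, with prefix 11 above and prefix 12 below every FA library. The group means, 22.1 ± 2.11 and 22.4 ± 6.83 CPM (SD, n = 4 each), differed by 0.01 on the log2 scale (standard error 0.19).

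The makeup of the PEA3 subfamily differed accordingly, as a description. Etv4 made up 10.4 to 13.5% of the summed level of the 3 genes per kilobase in FA and 14.2 to 27.3% in DE. Etv1 made up 39.5 to 43.6% in FA and 27.5 to 36.9% in DE, and Etv5 45.5 to 49.4% and 44.1 to 49.6%. The shares of Etv4 and Etv1 did not overlap between the groups, and that of Etv5 did. The lowest Etv4 share in DE, in replicate 7, was close to the highest in FA.

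The reference promoters of Etv1 and Etv5 are shown because the proteins of this subfamily bind ETS sites and the genes are counted among their own pathway's targets. Each window runs from 250 bases before to 50 bases after an annotated start in RefSeq (GRCm38.p6), which held windows for 7 of the 10 members, 9 in all, and none for Etv4, Spry4 or Dusp4. The letters searched, on both strands, were the PEA3 site AGGAAG and the ETS core CCGGAA (these differ in the base before GGAA and so never match at the same GGAA), TGACG of the cAMP-response element, the AP-1 site TGANTCA and the CArG box. Capitals mark every match. Etv1 (chr12:38779832-38780131, plus strand) and the downstream start of Etv5 (chr16:22438319-22438618, minus strand) read 5′ to 3′ as follows.
Etv1: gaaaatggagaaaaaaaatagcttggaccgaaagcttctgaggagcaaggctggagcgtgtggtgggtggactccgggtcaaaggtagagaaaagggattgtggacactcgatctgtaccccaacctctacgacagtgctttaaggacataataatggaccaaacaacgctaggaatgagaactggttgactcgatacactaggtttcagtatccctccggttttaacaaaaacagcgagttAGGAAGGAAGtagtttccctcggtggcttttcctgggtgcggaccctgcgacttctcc
Etv5: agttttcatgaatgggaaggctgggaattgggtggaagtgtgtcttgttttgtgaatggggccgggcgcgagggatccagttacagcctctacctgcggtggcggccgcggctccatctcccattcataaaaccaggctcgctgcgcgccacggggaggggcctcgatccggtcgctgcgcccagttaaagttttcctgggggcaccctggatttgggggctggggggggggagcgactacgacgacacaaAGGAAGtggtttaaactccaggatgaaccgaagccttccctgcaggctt
Etv1 held AGGAAG at 2 overlapping places at and just before the start, and Etv5 held it once, with its first base 1 base after the start. The other window of each gene, at the downstream start of Etv1 and the upstream start of Etv5, held none of the motifs. Of 27025 promoter windows of the same length, 35.1% held AGGAAG at least once and 8.47% at 2 or more places, so a match is common and is given as a description.

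Of the Sprouty genes, Spry1 and Spry4 were higher in every DE library, and Spry2, the most abundant per length, was not. Sprouty proteins are induced by growth factors and block signaling from receptor to Ras. Spry1, on chromosome 3 from 37639947 to 37644599, stood at 16.8, 14.7, 18.3 and 13.5 CPM in FA, and 25.3, 25.5, 19.3 and 29.5 CPM were measured in DE. The DE libraries of both prefixes were above FA, although replicate 5 exceeded the highest FA library by little. The mean went from 15.8 ± 2.13 to 24.9 ± 4.22 CPM. This was 0.65 on the log2 scale, with a standard error of 0.14. Spry4 stood at 15.0, 10.7, 14.6 and 15.3 CPM in the FA libraries and 21.5, 25.2, 20.0 and 20.3 CPM in DE. FA replicate 3 was low, and the gap between the highest FA and the lowest DE library was clear. The log2 fold change of Spry4 was 0.64 (standard error 0.13), close to that of Spry1.

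Spry2, on chromosome 14 from 105891947 to 105896819, stood at 68.0, 61.1, 64.6 and 39.1 CPM in FA, and 60.2, 55.8, 55.2 and 65.9 CPM were measured in DE. The groups overlapped, and FA replicate 6 was the lowest of all 8 libraries. On the log2 scale the means differed by 0.02 (standard error 0.16). The windows of Spry1 (chr3:37639697-37639996, plus strand) and Spry2 (chr14:105896770-105897069, minus strand) are shown as those of a Sprouty gene that was higher in every DE library and of one that was not.
Spry1: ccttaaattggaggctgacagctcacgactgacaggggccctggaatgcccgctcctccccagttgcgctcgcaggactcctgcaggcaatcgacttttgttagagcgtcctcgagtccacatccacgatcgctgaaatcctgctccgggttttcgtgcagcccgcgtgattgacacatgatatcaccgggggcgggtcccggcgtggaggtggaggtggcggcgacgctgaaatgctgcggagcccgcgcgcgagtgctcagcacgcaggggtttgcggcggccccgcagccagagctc
Spry2: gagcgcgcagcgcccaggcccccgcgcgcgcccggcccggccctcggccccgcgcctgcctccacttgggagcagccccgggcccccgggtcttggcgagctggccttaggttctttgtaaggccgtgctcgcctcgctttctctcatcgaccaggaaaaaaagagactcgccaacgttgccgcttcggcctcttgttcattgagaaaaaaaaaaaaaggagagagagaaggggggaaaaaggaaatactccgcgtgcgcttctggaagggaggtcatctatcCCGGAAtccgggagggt
Spry2 held the ETS core once, after the start, as did 15.2% of all windows, and Spry1 held none of the 5 motifs. Among the remaining windows, Spred2 held AGGAAG at 2 places and TGACG once, and Dusp6 held AGGAAG once. TGACG was present in 21.0%, TGANTCA in 7.93% and the CArG box in 1.57% of all windows, and neither TGANTCA nor the CArG box occurred in a window of a member. Absence of these letters in a window of this size says nothing about binding of a factor elsewhere.

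The Spred genes and the ERK phosphatase genes overlapped between the groups. Spred proteins are membrane-bound relatives of Sprouty that bring neurofibromin to Ras. Spred1, on chromosome 2 from 117121071 to 117182279, stood at 51.0, 28.8, 52.7 and 29.4 CPM in FA, and 46.7, 28.4, 22.7 and 49.7 CPM were measured in DE. Each group fell into a high and a low pair of libraries, so that the spread within a group was far larger than the difference between groups, -0.14 on the log2 scale (standard error 0.27). Spred2, on chromosome 11 from 19924442 to 20024026, stood at 23.8, 14.7, 21.5 and 13.0 CPM in FA, and 20.3, 16.7, 13.4 and 17.3 CPM were measured in DE. Its high and low pairs were the same libraries as for Spred1, although in DE they nearly met, and its log2 fold change was -0.11 (standard error 0.20).

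Dusp4, which encodes a nuclear phosphatase of ERK and related kinases, lies on chromosome 8 from 34807610 to 34819894. It stood at 14.7, 11.9, 15.2 and 10.1 CPM in FA, and 17.3, 12.3, 11.0 and 15.0 CPM were measured in DE. The difference was 0.10 on the log2 scale (standard error 0.17). The high libraries in each group were again those of positive length slope. Dusp6, which encodes a cytoplasmic phosphatase selective for ERK and lies on chromosome 10 from 99263231 to 99267489, stood at 60.1, 48.4, 57.8 and 58.7 CPM in FA, and 70.6, 88.5, 53.5 and 61.6 CPM were measured in DE. Of the DE libraries, 3 were above every FA library and replicate 5 was below most of them. DE differed from FA by 0.28 on the log2 scale (standard error 0.15), and by 0.14 without DE replicate 3.

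Over all members, 3 of 10 met the thresholds of a call in DE against FA (an adjusted p of at most 0.05 from edgeR's quasi-likelihood test and at least a 25% difference), namely Etv4, Spry1 and Spry4, all higher in DE. Of all tested genes, 5.8% were called, 3.58% higher and 2.22% lower in DE. The groups did not overlap for 4 of 10 members, against 14.7% of all tested genes. The members were chosen on this contrast, and these counts carry no weight. The median log2 fold change was 0.19 over the members and 0.00 over all tested genes. The members' median was 0.29 without DE replicate 5, 0.33 with the prefix as a term or with prefix 11 libraries only, and 0.04 without the 2 DE libraries of prefix 11. Spry1 did not meet the thresholds without FA replicate 2, 3, 4 or 6 or DE replicate 3 or 7. Spry4 did not meet them without FA replicate 2 or 4 or DE replicate 3, with the prefix as a term, or with the libraries of prefix 11 only. Neither met them with the 25% difference built into the test. With the prefix as a term, Etv5 met them. The summed level of fibroblast markers, like Etv4, Etv5, Spry1 and Spry4, was higher in every DE library than in any FA library, and its part in their levels was not tested. As a description over 8 libraries that share the exposure groups, Pearson's r of the log2 level with the fibroblast sum was 0.91 for Spry4, 0.88 for Etv5, 0.77 for Spry1 and 0.71 for Etv4. For deviations from the group means it was 0.72, 0.74, 0.29 and -0.12 in the same order.

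The DE libraries of the 2 prefixes differed for Etv1 in a contrast that was not used to choose the members. In a model of 3 groups, Etv1 had a mean of 27.97 CPM in DE prefix 11 and 16.7 CPM in DE prefix 12. The difference was -0.74 on the log2 scale (standard error 0.15), with an adjusted p of 0.0405 from edgeR's quasi-likelihood test, adjusted over all tested genes by Benjamini-Hochberg. It was the 1 called member of 10, and 2.06% of all tested genes were called. With 2 libraries a side the call was fragile. It was lost without DE replicate 1, 3, 5 or 7, with library totals alone, with offsets for length and GC content, and with the 25% difference built into the test. Spred1 showed a larger difference with a larger error, from 48.2 to 25.5 CPM (log2 fold change -0.92, standard error 0.27, adjusted p = 0.0916 in the same edgeR test), and DESeq2 called it. For Etv5 (-0.44, standard error 0.15), Dusp4 (-0.48, standard error 0.19) and Etv4 (0.37, standard error 0.22) the adjusted p-values from edgeR were 0.112, 0.168 and 0.330. The prefix and the exposure cannot be told apart for prefix 12, which holds DE libraries only. Within DE, the prefix and the length slope cannot be told apart either, since both libraries of prefix 11 had a positive and both of prefix 12 a negative slope. Among the 9 markers of fibroblasts, 6 of the conduction system and 6 of the atria, 1 was called in this contrast, the atrial gene Bmp10, which fell from 7.63 to 2.57 CPM (log2 fold change -1.58, adjusted p = 0.0339 by edgeR) and was named after its value was seen. The summed atrial markers lay at 522.4 to 802.2 CPM in prefix 11 and 683.1 to 795.6 CPM in prefix 12, those of the conduction system at 215.3 to 241.8 and 209.6 to 221.2 CPM, and those of fibroblasts at 4616 to 6284 and 3736 to 4794 CPM. The ranges overlapped for each of these, and for cardiomyocyte, endothelial, smooth muscle and pericyte, and erythroid markers. Leukocyte markers were lower in prefix 11 (14.9 to 18.6 CPM) than in prefix 12 (22.4 to 26.1 CPM), without overlap. So were those of mesothelium (92.2 to 109.4 against 116.5 to 130.9 CPM) and Schwann cells (5.596 to 5.84 against 7.11 to 7.14 CPM). The part of any of these cells in the difference of Etv1 was not tested.

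Each DE prefix was also compared with the 4 FA libraries, as a description. With DE prefix 11 alone, the log2 fold changes of Etv4, Spry1 and Spry4 were 0.94, 0.79 and 0.58, and with DE prefix 12 alone they were 1.31, 0.49 and 0.69. Those of Etv5 were 0.59 and 0.15. Those of Dusp6 were 0.23 and 0.33. The other 5 members had a value above 0 with prefix 11 and below 0 with prefix 12, namely Etv1 (0.34 and -0.41), Spred1 (0.25 and -0.67), Dusp4 (0.32 and -0.16), Spry2 (0.11 and -0.08) and Spred2 (0.04 and -0.29). For Etv4, Etv5, Spry1 and Spry4, whose groups do not overlap, the direction with either pair of DE libraries was fixed.

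**Figure D2:**
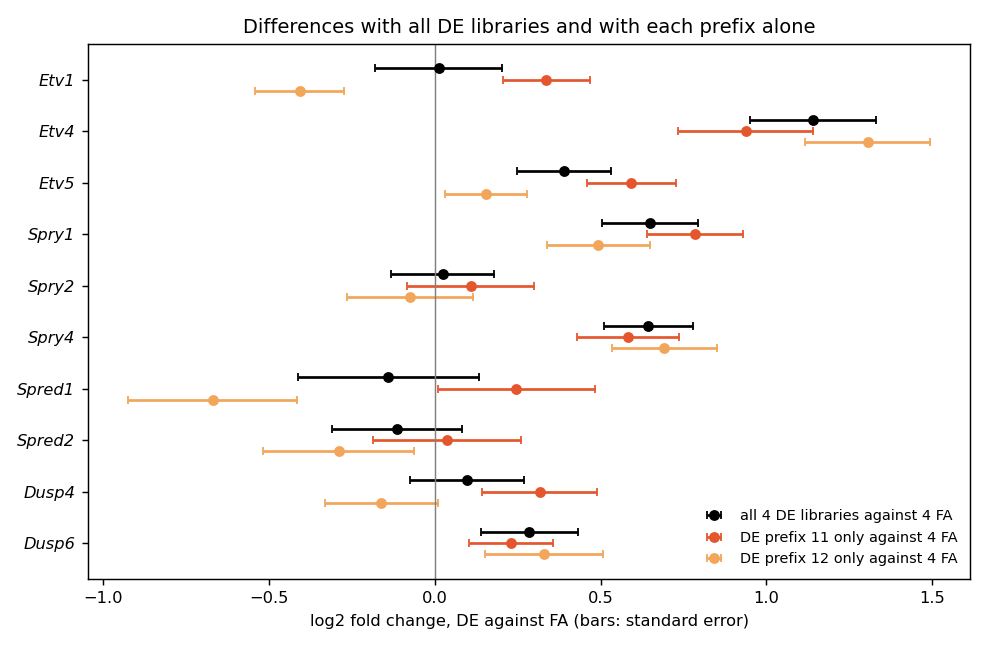
Log2 fold change of DE against FA for the 10 members with all 4 DE libraries (black), with the 2 of prefix 11 (red) and with the 2 of prefix 12 (orange), each against the same 4 FA libraries, with standard errors as bars. Etv4, Etv5, Spry1, Spry4 and Dusp6 lie to the right of 0 in all 3 fits, while Etv1, Spred1, Dusp4, Spry2 and Spred2 lie on opposite sides of 0 with the 2 prefixes.

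The Spred genes, Dusp4 and Etv1 were higher in the libraries of positive length slope, in FA and in DE alike. In the 4 libraries of positive slope Spred1 stood at 46.7 to 52.7 CPM, and in the 4 of negative slope at 22.7 to 29.4 CPM. Spred2 was at 17.3 to 23.8 and 13.0 to 16.7 CPM, Dusp4 at 14.7 to 17.3 and 10.1 to 12.3 CPM, and Etv1 at 22.5 to 30.2 and 15.3 to 22.3 CPM. These 4 of the 10 members did not overlap between the 2 sets of libraries, against 16.1% of all tested genes. Etv4 did not follow this split, with 1.84 to 4.36 and 1.92 to 5.77 CPM. With offsets that removed the trends with length and GC content, the log2 fold changes of DE against FA were 0.96 for Etv4, 0.55 for Spry1 and 0.68 for Spry4. That of Spred1 was 0.03, and the part of transcript length in its levels was not tested further.

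**Figure D3:**
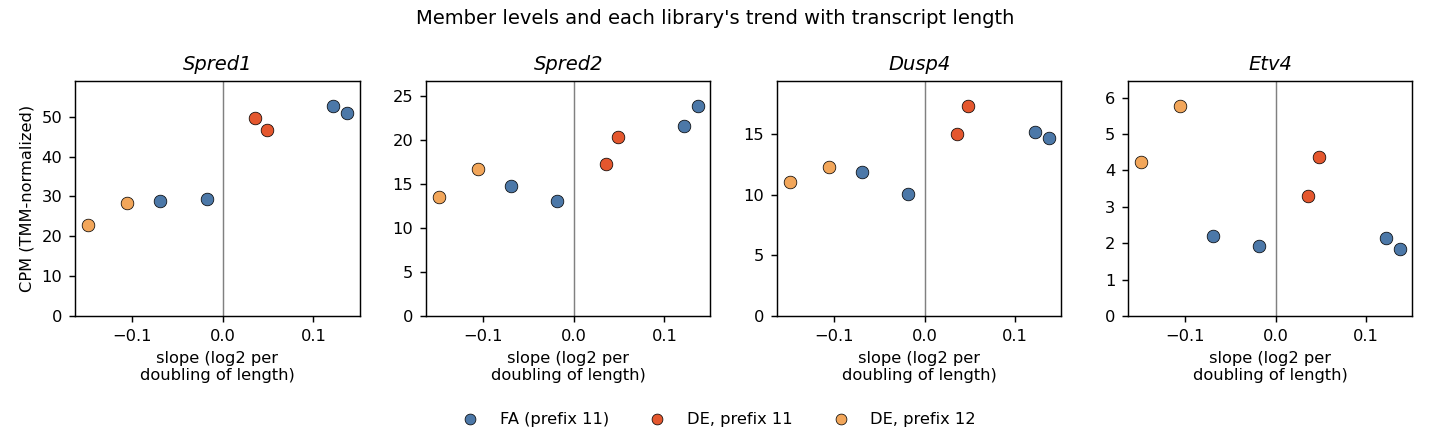
Level (CPM, linear axis from 0) of Spred1, Spred2, Dusp4 and Etv4 in each of the 8 libraries against the slope of that library's levels on transcript length (log2 per doubling of length). Spred1, Spred2 and Dusp4 are higher in the 4 libraries right of 0 than in the 4 left of it, whereas for Etv4 the 4 DE libraries are above the 4 FA libraries on either side.

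Other genes of the pathway were examined next, in 5 lists with 88 genes, of which 78 were tested. A total of 5 were called in DE against FA, 4 higher and 1 lower, beside the 5.8% called of all tested genes. Between the DE prefixes 1 of them was called, the ETS factor Elk4 (log2 fold change -1.72, adjusted p = 0.0422 by edgeR), which was named after its value was seen. Ccnd1, which encodes cyclin D1 and is a classical target of ERK in proliferating cells, rose from 36.5 ± 5.09 to 66.5 ± 9.13 CPM (SD, n = 4 each). The difference on the log2 scale was 0.87 (standard error 0.13), with a Benjamini-Hochberg adjusted p of 0.00493 from edgeR. The FA libraries reached at most 40.5 CPM and the DE libraries at least 58.6 CPM. Fgf1, a ligand of all FGF receptors, fell from a mean of 64.7 ± 7.52 to one of 38.3 ± 1.74 CPM. On the log2 scale this was -0.76 (standard error 0.10), and edgeR gave an adjusted p of 0.0030. Its lowest FA library was at 54.8 CPM and its highest DE library at 40.1 CPM. Both genes were called under all 22 alternatives. The study also named them from these libraries, so neither is independent evidence.

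Of the FGF receptor genes, Fgfr1 and Fgfr4 were called, and Fgfr2, Fgfr3 and Fgfrl1 were not, with log2 fold changes of 0.23, 0.05 and -0.19 (adjusted p = 0.416, 0.779 and 0.465 by edgeR). Those last 3 genes were named after their values were seen. Fgfr1, the main FGF receptor of many mesenchymal and muscle cells, rose from 49.4 ± 4.60 to 66.8 ± 5.73 CPM (log2 fold change 0.43, standard error 0.10, adjusted p = 0.0350 in the same edgeR test), with no overlap between the groups. It was called under 13 of 22 alternatives, and not without FA replicate 2, 3, 4 or 6 or DE replicate 1 or 3, with the prefix as a term, or with prefix 11 libraries only. Fgfr4 rose from 0.19 ± 0.08 to 0.54 ± 0.10 CPM (log2 fold change 1.45, standard error 0.34, adjusted p = 0.0352 by edgeR), but on 88 fragments over all libraries. That call was lost without FA replicate 2, 3, 4 or 6 or DE replicate 7, with the prefix as a term and with prefix 11 libraries only, DESeq2 gave no adjusted p, and without DE replicate 1 or 3 the gene did not pass the filter on low counts. Of 11 tested ligands and receptors, 2 were called higher and 1 lower, beside 3.58% and 2.22% of all tested genes. Their log2 fold changes were above 0 for 5 and below 0 for 6, with a median of -0.19. Fgf9, named after its value was seen, was lower in DE without overlap but missed the call (log2 fold change -0.45, adjusted p = 0.0506 by edgeR). DESeq2, the likelihood ratio test and limma-voom called it. Fgf13, an intracellular relative of the FGF ligands that acts on sodium channels and does not signal as the others do, had the highest level per length in this list. It stood at 78.7 ± 2.34 CPM in FA, against 67.2 ± 5.07 CPM in DE (log2 fold change -0.23, adjusted p = 0.144 by edgeR).

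Of the 15 other targets of ERK activity, all tested, Ccnd1 alone was called, and the immediate-early gene Fos had almost the same mean in both groups. Fos, the most abundant per length, stood at 388.1 ± 40.6 CPM in FA, against 387.8 ± 64.9 CPM in DE (log2 fold change 0.00, standard error 0.13). The list had a median of 0.07, with 9 genes above and 6 below 0.

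None of the 13 tested other feedback genes and none of the 23 genes of the ERK cascade were called by edgeR's quasi-likelihood test. The share called over all tested genes was 5.8%. At an unadjusted p under 0.05 these lists held 3 and 6, beside 3828 of all 14966 tested genes. DESeq2 called 1 in each, Spsb1 and Mapk3, which were named after their values were seen. The likelihood ratio test called 1 and 0, and limma-voom called 0 in both. Library totals alone called 0 and 1, the latter being Mapk3. The fit without DE replicate 1 called 1 and 1, Spsb1 and Map2k1. With the prefix as a term, and with prefix 11 libraries only, 0 and 1 were called, the latter being Egfr, and with the offsets 1 and 1, Spsb1 and Egfr. With the 2 DE libraries of prefix 12 alone, 6 and 8 were called, in a fit that called 3240 of 15338 genes. The median log2 fold changes were -0.13 and -0.04. Rasa1, a GTPase-activating protein of Ras, had the highest level per length of the feedback list. It stood at 115.3 ± 15.3 CPM in FA, against 96.9 ± 13.8 CPM in DE (log2 fold change -0.25, standard error 0.13).

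Of the 16 other ETS factors tested, Spdef was called, at a low level. Spdef, known from secretory epithelia, rose from 0.31 ± 0.13 to 0.74 ± 0.20 CPM (log2 fold change 1.37, standard error 0.36, adjusted p = 0.0470 by edgeR) on 126 fragments in all, and was called under 11 of 21 alternatives. The call was lost without any one of the FA libraries, without DE replicate 3, 5 or 7, with the prefix as a term, and with prefix 11 libraries only. With the 25% difference built into the test, Fgfr1, Fgfr4 and Spdef were not called. Ets2, the most abundant per length, stood at 137 ± 9.90 CPM in FA, against 141.8 ± 20.4 CPM in DE (log2 fold change 0.05, standard error 0.12). The list's median was 0.00, the same as that of all tested genes.

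**Figure D4:**
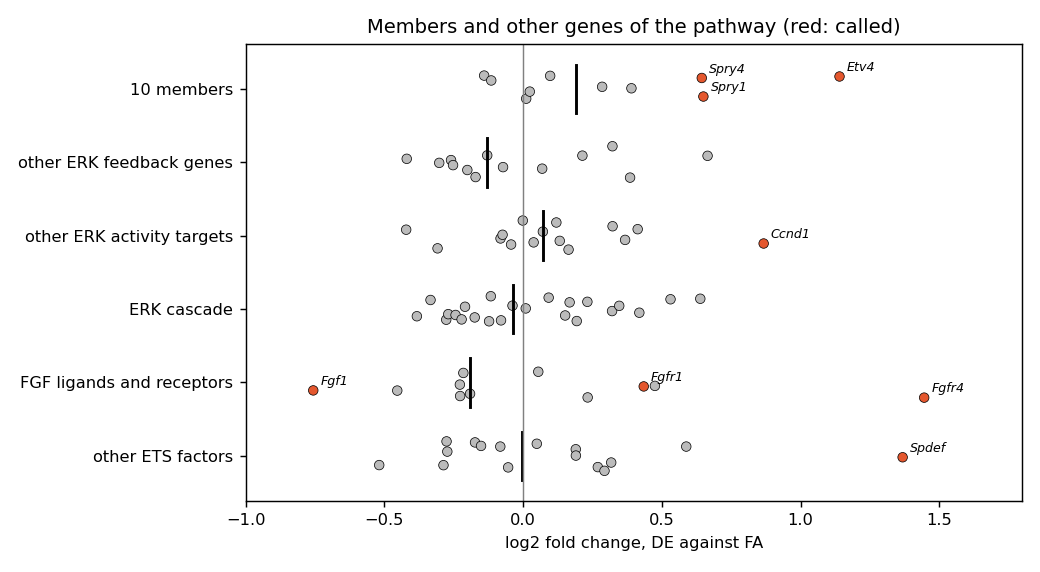
Log2 fold change of DE against FA for the 10 members and for the tested genes of the 5 other lists, 1 point per gene (vertical position within a row is arbitrary), with called genes in red and named and the median of each row as a black bar. The medians of the 5 lists lie between -0.19 and 0.07, and 5 of their 78 tested genes are called.

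The genes whose levels were most like that of Etv4 over the 8 libraries were sought among the 10698 genes whose mean was 5 CPM or more. By Pearson's r of log2 CPM they were Gm13889 (0.98), Epdr1 (0.98), C1qtnf6 (0.98), Kcp (0.98) and Ppp1r12c (0.97). By deviations from the group means, which remove only the groups' mean difference, they were Epdr1 (0.98), Cc2d1a (0.97), C1qtnf6 (0.95), Ccm2l (0.94) and Lmna (0.94). These deviations were wider for Etv4 in DE than in FA (SD 1.02 against 0.17 CPM). Epdr1 and C1qtnf6 were in both sets. Epdr1 moved in parallel to Etv4 but on a far smaller scale, with 18.6 ± 0.22 CPM in FA against 20.2 ± 0.81 CPM in DE, and C1qtnf6 went from 43.1 ± 2.21 to 57.0 ± 6.96 CPM. These values were picked as the highest of many over 8 libraries and are a description of these libraries.

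Some counts of the members could include fragments of other genes. No run of 50 bases was shared between any 2 members, and Etv4, Spry2, Spry4, Spred1, Dusp4 and Dusp6 shared none with any other gene. A part of Etv5 (26.1% of its 50-base runs) was also present in the pseudogene Gm4798. Exons of Spry1 overlap those of Gm42922 on the opposite strand (21.8%), and whether strand was used in the counting is not given in the sources used here. Etv1 shared 16.6% of its runs with 315 other genes, and Spred2 1.39% with the pseudogene Gm14612.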

How the data were processed

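RNA-seq of NCMs from 4 FA and 4 DE offspring was used. After poly-A enrichment and stranded library preparation, the authors aligned reads to mm10 with TopHat, marked duplicates with Picard without removing them, realigned with GATK and deposited raw counts of fragments per Entrez gene from featureCounts, without normalization. Strand setting and handling of multi-mapped fragments are not given in the sources used here. Whether marked duplicates were counted is not given either.

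Low counts were removed with filterByExpr (minimum count 10), TMM factors were computed, and exposure was tested with edgeR 4.0.16 in R 4.3.3 (glmQLFit, then glmQLFTest), without further terms. Benjamini-Hochberg adjustment was over 14966 genes. Calls needed an adjusted p of 0.05 or less and a 25% difference, as in the study. The biological coefficient of variation was 15.9%. The methods state fewer libraries per group than the 4 used here. DESeq2 1.42.0, limma-voom (limma 3.58.1), other factors and filters, the prefix and each library left out were alternatives. The offsets (splines with 5 degrees of freedom, 96.9% of tested genes) and the fit without the 2 DE libraries of prefix 11 were added after the data were seen. The code was tested on simulated data. No library was a copy of another. Within groups, FA replicates 2 and 4 were the closest pair, with a chi-square of 5.37 per gene against 17.1 to 70.1 for the others. Without FA replicate 2 there were 249 called genes, and without FA replicate 4 there were 237, against 868. Why these libraries were so alike was not tested.

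Members and lists were chosen with earlier results of these data known. Lists were written from general knowledge. Named genes were the members, called genes of the lists, the most abundant gene per length of each list, and the 5 genes most like Etv4 by each of 2 measures. Of these, 1 is not reported here. Marker lists also covered smooth muscle and pericytes, erythroid cells, mesothelium, Schwann cells, conduction system and atria.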

Additional observations from a re-analysis of the deposited data

Results flagged for a closer look

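Spry4 in FA replicate 3 stood apart from the other FA libraries, at 10.7 CPM against 14.6 CPM in the nearest library. Its gap took a share of 0.831 of the range of the 4 libraries, just above Dixon's 95% critical value for 4 libraries. Of the 20 groups of 4 libraries examined over the 10 members, this was the 1 that exceeded it, and chance gives about 1 in 20. Without this library the log2 fold change of Spry4 was 0.54 and the gene was still called.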

How the results depend on the processing

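No paired analysis was possible because the FA and DE libraries share only the replicate number 3. The members were chosen on DE against FA, so their values under the alternatives are a description. Log2 fold changes ran from 0.94 to 1.31 for Etv4, 0.49 to 0.79 for Spry1 and 0.54 to 0.72 for Spry4. The member count of 3 went to 1 with the 25% difference built into the test and to 1 to 3 when single libraries were left out. The count of all genes called, 868, was 1618 with DESeq2, 1603 with the likelihood ratio test, 448 with the prefix as a term, 260 with prefix 11 libraries only, 114 with the built-in difference, 1594 with the offsets, 3240 without the 2 DE libraries of prefix 11, and 237 to 1168 without single libraries. With library totals alone, 803 genes were higher and 217 lower, against 536 and 332. The number of called genes in the pathway lists, 5, was 3 with the prefix as a term or with prefix 11 only (Ccnd1, Fgf1 and Egfr, of which Egfr is not among the 5), 2 with the built-in difference, 8 with the offsets, 24 without the 2 DE libraries of prefix 11, and 2 to 5 without single libraries. The 1 member called between the DE prefixes was 2 with DESeq2, the likelihood ratio test or no filter on low counts. It was 0 with library totals alone, the built-in difference or the offsets, and 0 to 2 without single libraries, where a lone DE library was taken to vary like the other groups. Without the 2 DE libraries of prefix 11, the values moved to -0.41 for Etv1, 0.15 for Etv5 and -0.67 for Spred1. The cause of these changes was not tested.

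Genes that were not called and lay near 0 changed sign. The log2 fold change of Fos was 0.000377 with relative log expression factors, 0.026 with upper quartile factors, 0.074 with library totals alone, 0.000378 with DESeq2, 0.0078 with no filter, 0.000578 with a mean of at least 1 CPM, 0.019 with the prefix as a term, 0.014 with prefix 11 only, and -0.098 to 0.068 without single libraries. That of Ets2 was -0.018 to 0.12 without single libraries, and that of Lmna was -0.0071 with the prefix as a term and -0.012 with prefix 11 only. Members that were not called also changed sign. Of 22 alternatives, Etv1 was above 0 in 17, Spry2 and Dusp4 in 18, Spred1 in 5 and Spred2 in 3. With the prefix as a term, all 10 members were above 0. Among the members and called pathway genes, depth limits Etv4, Fgfr4 and Spdef most, with 767, 88 and 126 fragments over the 8 libraries.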
